A study of Mus musculus with 24 samples.

Results

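The comparison described here is wild-type cardiomyocytes of mice given doxorubicin against those of mice given PBS, 16 h after the injection. Its members are the 6 arrays, of 24 in the series, whose titles name wild type and 16 h: 3 replicates after doxorubicin and 3 after PBS. The study asked how cardiomyocytes with and without Top2b, which encodes topoisomerase II beta, respond to doxorubicin at 16 h and at 72 h. Both groups are given as male mice of 6 weeks on a mixed 129SvEv/C57BL/6 background. The treated mice received 25 mg/kg of doxorubicin and the controls PBS, both into the peritoneum. The other genotype of the series, Top2b-/-, is labelled a deletion of Top2b limited to the heart, and the sources used here do not give the promoter that drove it. Live cardiomyocytes were isolated from the hearts on a Langendorff apparatus, which perfuses the excised heart with enzyme solution, and their total RNA was labelled with Cy3 and hybridised to 1-colour Agilent arrays. The isolates are bulk samples that can hold other heart cells, so fewer cells of a type and less RNA per cell cannot be told apart.

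Doxorubicin is an anthracycline used against many cancers, and its dose is limited by toxicity to the heart. It intercalates into DNA and traps type II topoisomerases on cut DNA, and its quinone group can be reduced by 1 electron and pass that electron to oxygen. Topoisomerase II beta is the isoform that non-dividing cells such as cardiomyocytes express. DNA breaks stabilise p53, oxidants release the transcription factor NRF2 from its inhibitor KEAP1, and nucleic acids in the cytosol can switch on interferon genes, and each of these routes has well-known target genes.

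Some labels of the 6 arrays disagree with each other or with the data. Titles were used for the genotype, although the genotype field calls PBS replicate 3 and doxorubicin replicate 1 Top2b-deleted. By title, the Top2b probe had a log2 level of 4.2 ± 0.16 (SD, n = 6) on the wild-type and 2.98 ± 0.27 (SD, n = 6) on the Top2b-deleted arrays of 16 h (exact permutation p = 0.00216, two-sided). By the genotype field the difference was -0.27 (exact permutation p = 0.509). All mice are labelled male, but doxorubicin replicates 2 and 3 had no Ddx3y or Uty, both Y-linked, above background and had Xist above it. Another Y-linked gene, Eif2s3y, was above background on doxorubicin replicate 3 at -3.35 and not on replicate 2, against 3.75 to 3.97 on the other 4 arrays. Replicates 2 and 3 also had an Esr1 probe above background, at 0.60 and 1.05. Among the Esr1 probes this one was picked for its widest range over the arrays of 16 h. The 3 PBS arrays and doxorubicin replicate 1 had Ddx3y, Eif2s3y and Uty above background and Xist and Esr1 not. The drug and this division of the arrays therefore overlap in part, and most groups of genes below are also given for doxorubicin replicate 1 alone against PBS. The X chromosome itself held 11.4% of genes higher and 12.9% lower, against 13.7% and 14.4% on the autosomes.

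A level here is the log2 of the processed spot signal minus the 75th percentile of its array, so a positive level lies above that percentile. A change is the mean level after doxorubicin minus the mean after PBS ± SE of the limma fit, with 3 arrays per group, and a gene is called higher or lower, or said to rise or fall, where its Benjamini-Hochberg adjusted p over all genes tested is under 0.05. Spots well above background made up 42.9% to 47.7% of each of the 6 arrays, all 6 were on 1 slide, and 0 spots were saturated. The labels do not say that the arrays come from separate animals, so the p-values measure the spread between these samples, which may be technical.

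Doxorubicin changed a large share of the measured genes within 16 h. Of 18750 genes tested 5224 were called, or 27.9%, of which 2550 (13.6% of all) were higher and 2674 (14.3% of all) lower. At least 2-fold changes were as common upward as downward, at 1161 genes each, whereas 348 genes rose and 208 fell at least 4-fold. The median change over all genes was -0.03, and the quartiles were -0.37 and 0.32. In 36.7% of all genes, and in 96.3% of those called, the 3 doxorubicin arrays lay wholly above or wholly below the 3 PBS arrays.

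The doxorubicin arrays differed more among themselves than the PBS arrays did. Pairwise correlations over genes, which are not independent replicates, were 0.9905 to 0.9932 among PBS arrays and 0.9571 to 0.9781 among doxorubicin arrays, and the median SD of a gene was 0.154 and 0.335. Among called genes, doxorubicin replicate 1 lay farthest from the PBS mean in 43.2%, replicate 2 in 38.2% and replicate 3 in 18.6%. Doxorubicin replicate 1 alone against PBS, in a fit that assumes this lone array varies like the other groups, gave 7520 calls, of which 4145 were calls of the full comparison in the same direction. Fitted on the 6 wild-type arrays without the Top2b-deleted ones, the comparison gave 2027 calls, 1013 higher and 1014 lower.

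The largest rise among genes measured on all 6 arrays was in Hmox1, which encodes heme oxygenase 1, the enzyme that breaks heme down to biliverdin, carbon monoxide and iron. Its level was -0.62, -0.46 and -0.82 on the PBS arrays and 5.49, 5.68 and 3.82 on the doxorubicin arrays. The groups did not overlap, and Hmox1 was 49.4-fold higher (5.63 ± 0.47, adjusted p = 5.86e-05). The steepest fall was in Tfrc, the transferrin receptor that brings iron into the cell, at 3.69, 3.16 and 3.78 on the PBS arrays and -0.36, -1.65 and -1.99 on the doxorubicin arrays. Tfrc was 29.4-fold lower (-4.88 ± 0.47, adjusted p = 0.000105), and its highest doxorubicin array stayed below its lowest PBS array. These values are of the brightest kept probe of each gene. The second probe of Hmox1 gave a smaller rise, of 3.5, and the 3 probes of Tfrc gave -4.88 to -3.84.

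The other rises among the 20 largest reached from transport and hormone signalling to cell division and innate immunity. Slc10a6, a transporter of sulfated steroids, was at -3.1, -2.33 and -2.53 on the PBS arrays and 4.74, 0.47 and 1.20 on the doxorubicin arrays, so that replicate 1 rose far more than the others (4.79 ± 0.88, adjusted p = 0.00307). Inhbb, a subunit of activin B, followed the same order, at -2.59, -2.0 and -1.64 on the PBS arrays and 4.58, 0.22 and -0.26 on the doxorubicin arrays (3.59 ± 0.99, adjusted p = 0.0221). Pnpla3, a lipid droplet lipase, was highest on replicate 1 too, at -3.06, -2.41 and -2.44 on the PBS arrays and 3.44, -0.66 and 1.12 on the doxorubicin arrays (3.94 ± 0.77, adjusted p = 0.00417), and its second kept probe gave a change of 1.44. More even across the 3 arrays was Pnmt, the enzyme that turns noradrenaline into adrenaline, at -1.52, -1.22 and -1.79 on the PBS arrays and 1.85, 1.80 and 2.18 on the doxorubicin arrays (3.45 ± 0.20, adjusted p = 1.08e-05). Il6ra, the receptor subunit that binds interleukin 6, was at -1.20, -1.58 and -1.75 on the PBS arrays and 1.57, 1.83 and 1.84 on the doxorubicin arrays (3.26 ± 0.29, adjusted p = 7.16e-05). Apod, a lipid-binding lipocalin, was at -1.20, -1.53 and -1.67 on the PBS arrays and 1.66, 2.54 and 1.70 on the doxorubicin arrays (3.43 ± 0.31, adjusted p = 7.96e-05). Spc25 of the kinetochore rose by 4.11 ± 0.28, Trp53inp1, a p53 target, by 3.53 ± 0.39, and the interferon genes Igtp, Irgm2, Irf7 and Gbp4 are described below. The Inhbb call was lost without PBS replicate 1 (3.34, adjusted p = 0.0699) or PBS replicate 2 (3.63, adjusted p = 0.0575).

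Several leading rises were in transcripts with no gene symbol of known function. Gm10638 rose by 4.42 ± 0.29, 4833418N02Rik by 3.40 ± 0.57 and E330037I15Rik by 3.35 ± 0.91, the last of which lost its call without PBS replicate 1 (2.69, adjusted p = 0.0759) or PBS replicate 2 (3.20, adjusted p = 0.0641). D430040L24Rik (4.25 ± 0.39) and an interval probe for a long noncoding transcript, at 92558850 to 92558909 of chromosome 5 in mm9 (4.28 ± 0.37), share their site on the array and are 1 signal. A second interval probe, on chromosome 17 at 34018374 to 34018433 in mm9 (3.53 ± 0.20), lies at Kifc1, a minus-end kinesin, which rose as well, at -3.15, -3.08 and -3.47 on the PBS arrays and 0.96, 1.02 and 0.23 on the doxorubicin arrays (3.97 ± 0.22, above background on 2 of 3 PBS arrays). The transcript ENSMUST00000143306 (3.26 ± 0.33) lies 3.6 kb from Gm129, now named Ciart, a repressor of the circadian clock, which was at least 1.87-fold higher. The call of Gm129 was lost without PBS replicate 2 or doxorubicin replicate 2 (adjusted p = 0.0527 and 0.0546). Kifc1 and the neighbours named here and below were chosen after their values were seen.

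Among the 20 largest falls were genes of the contractile cell, of signalling at the membrane and of chromatin. Nppb, which encodes brain natriuretic peptide, a hormone released by strained heart muscle, was at 5.59, 6.54 and 6.98 on the PBS arrays and 3.99, 0.16 and 2.37 on the doxorubicin arrays (-4.19 ± 0.76, adjusted p = 0.00288). Replicate 2 fell most and replicate 1 least, and the groups did not overlap. Pde4a, a phosphodiesterase that breaks down cyclic AMP, was at 4.87, 4.70 and 4.75 on the PBS arrays and 0.60, 0.96 and 2.70 on the doxorubicin arrays (-3.36 ± 0.42, adjusted p = 0.00044). Tnfaip2, a gene induced by tumour necrosis factor, was at 3.73, 3.98 and 3.97 on the PBS arrays and 0.78, -0.31 and 0.18 on the doxorubicin arrays (-3.67 ± 0.28, adjusted p = 3.65e-05). All 3 doxorubicin arrays were clearly below PBS for both. Rcor2, a corepressor that partners the histone demethylase LSD1, was at 2.75, 2.21 and 2.53 on the PBS arrays and -2.19, -0.65 and -1.01 on the doxorubicin arrays (-3.78 ± 0.33, adjusted p = 6.66e-05). Dnmt3a, a de novo DNA methyltransferase, was at 3.24, 3.21 and 3.26 on the PBS arrays and -0.93, 0.28 and 1.57 on the doxorubicin arrays (-2.93 ± 0.47, adjusted p = 0.00149), with replicate 1 lowest and replicate 3 nearest PBS. The imprinted noncoding RNA H19 fell by -3.03 ± 0.33, and all 6 of its kept probes were lower, by -1.77 to -3.53. The ligand Wnt5b (-3.31 ± 0.19), the ephrin receptor Ephb1 (-3.30 ± 0.77), the nuclear corepressor Hr (-3.29 ± 0.33), the splicing regulator Srrm4 (-3.04 ± 0.26) and the ciliary gene Cc2d2a (-3.08 ± 0.35) fell as well. Cerk, the kinase of ceramide, was at 4.76, 4.65 and 4.66 on the PBS arrays and 2.60, -0.83 and 3.80 on the doxorubicin arrays, and its call (-2.83 ± 0.87, second probe -0.90) was lost without any 1 PBS array (-2.80 to -2.85, adjusted p = 0.0799 to 0.083).

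At 3 of these places the nearest other gene probe was lower too, the last of them lying in the same gene. Gm14492, now named Prr33, was at 2.51, 2.50 and 2.46 on the PBS arrays and -1.71, -2.27 and -2.11 on the doxorubicin arrays (-4.52 ± 0.24, adjusted p = 8.22e-06), and Lsp1, 3.4 kb away on chromosome 7, changed by -1.43 ± 0.19. Gm1078, now the kinase gene Sbk3, fell by -2.84 ± 0.39 and its neighbour Sbk2, 8.1 kb away, by -2.07 ± 0.38. D930026N18Rik, a probe within the L-type calcium channel gene Cacna1c, fell by -3.15 ± 0.27, whereas the Cacna1c probe 6.7 kb away changed by -0.66 ± 0.19. The Cacna1c call was lost without PBS replicate 2 or 3 or doxorubicin replicate 1 or 3. Near Gm1078, Zfp579 (-0.69) and Nat14 (-1.36) fell too. Farther neighbours such as Tnnt3 (-0.17) and Mrpl23 (-0.02) near Gm14492, Fiz1 (0.01) near Gm1078 and Ankrd26 (-0.06) near D930026N18Rik did not pass. Nor did the nearest neighbour of H19 (-0.22). Of all genes 14.3% were lower, and neighbours were not tested as a set.

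Where a gene was above background on all 3 arrays of a group and on 0 of 3 of the other, its change has only a bound, taken at the lowest detectable signal. There were 151 such genes higher and 68 lower after doxorubicin. The largest bounds upward were for Saa3, an acute phase serum amyloid (at least 36.7-fold), 4632434I11Rik, now Ddias, a DNA damage-induced inhibitor of apoptosis (at least 25.5-fold), and Gtse1, a p53-regulated protein of dividing cells (at least 18.4-fold). Gm4841 (at least 15-fold), the serpin Serpina3g (at least 14.2-fold), Tal2 (at least 13.0-fold), Gm12592 and the BH3-only death gene Pmaip1 (at least 10.1-fold each) came next. The downward bounds were smaller, led by AI593442 (at least 6.94-fold), the sialyltransferase St8sia5 (at least 6.75-fold), Slc46a2 (at least 5.95-fold), Fam163b (at least 5.78-fold), Fam19a3 (at least 5.61-fold) and Mboat1 (at least 5.39-fold).

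**Figure D1:**
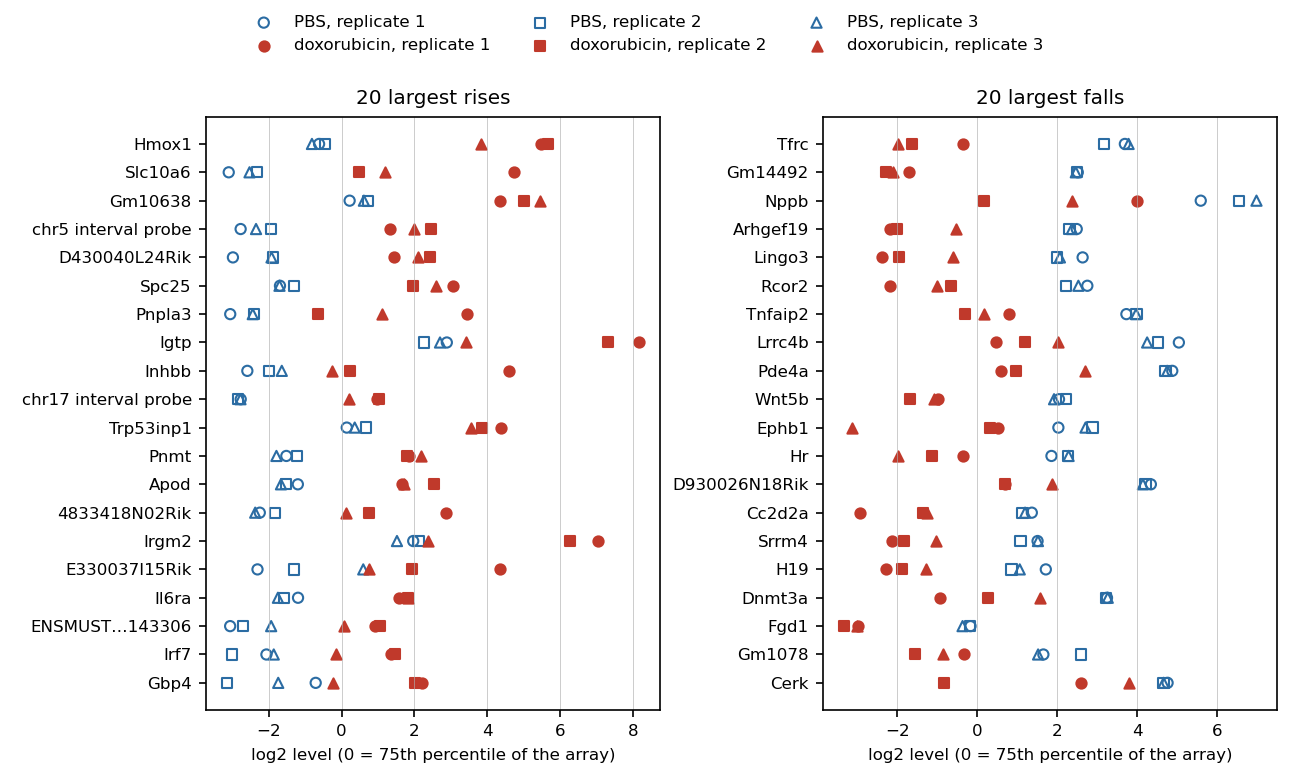
The log2 level (horizontal axis, 0 being the 75th percentile of the array) of the 20 largest rises and the 20 largest falls on each of the 3 PBS arrays (open symbols) and 3 doxorubicin arrays (filled symbols). The groups do not overlap for any gene plotted, which the choice of genes required. Among the rises, replicate 1 is the farthest doxorubicin array from the PBS mean for 10 genes and replicate 3 for 3, and Igtp and Irgm2 have replicate 3 close to PBS.

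Targets of p53 were mostly higher where they changed. Of 25 genes listed 23 were tested, 12 were higher and 1 lower, and the median change was 0.86 among those of growth arrest and feedback. Of 35 genes listed 34 were tested, 17 were higher and 1 lower, and the median change was 0.80 among those of death, metabolism and repair. Higher were therefore 52.2% and 50% of the genes tested, beside 13.6% of all genes. Cdkn1a, the kinase inhibitor p21, was at 1.82, 2.37 and 2.85 on the PBS arrays and 6.18, 5.63 and 4.48 on the doxorubicin arrays (3.09 ± 0.41, adjusted p = 0.000613). Phlda3, a repressor of Akt, was at 1.72, 1.91 and 1.84 on the PBS arrays and 4.89, 4.93 and 4.92 on the doxorubicin arrays (3.09 ± 0.23, adjusted p = 3.03e-05). Bax, which opens the outer mitochondrial membrane, was at 2.58, 2.47 and 2.59 on the PBS arrays and 4.11, 4.16 and 4.06 on the doxorubicin arrays (1.56 ± 0.10, adjusted p = 1.73e-05). The 3 doxorubicin arrays of Phlda3 and Bax were close to each other and well above PBS, while those of Cdkn1a were spread more widely. Mdm2, the ligase that degrades p53, rose by 1.03 ± 0.15, the G2 arrest gene Rprm by 3.91 ± 0.42 (above background on 1 of 3 PBS arrays) and the kinase Plk2 by 2.20 ± 0.26. On the death side Bbc3, or PUMA, rose by 2.41 ± 0.27, the receptors Fas by 1.94 ± 0.28 and Tnfrsf10b by 2.26 ± 0.24, Lrdd, or PIDD, by 2.76 ± 0.24 and the nuclease Aen by 1.50 ± 0.14. Eda2r was at least 3.47-fold and Ckap2 at least 3.06-fold higher. The repair polymerase Polk rose by 2.74 ± 0.34 and the repair nuclease Ercc5 by 1.14 ± 0.19. In each list 1 member was lower, Pml (-0.55 ± 0.15) and Dram1 (-1.02 ± 0.33, above background on 2 of 3 PBS arrays and 1 of 3 doxorubicin arrays), and both calls were lost without any 1 PBS array or without doxorubicin replicate 2. Trp53 itself was at -0.21 ± 0.22 (adjusted p = 0.512, above background on 2 of 3 arrays of each group). For doxorubicin replicate 1 alone 12 and 16 members of the lists were higher, with medians of 0.93 and 0.41, and 2 and 5 lower.

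In the BCL2 family, whose members decide whether mitochondria release cytochrome c, both death and survival genes rose. Of 23 genes listed 18 were tested, 7 were higher (38.9%, beside 13.6% of all genes) and 3 lower (16.7%, beside 14.3%). The median change was 0.31. Besides Bax, Bbc3 and Pmaip1 these included the survival gene Bcl2l1 at 3.98, 4.46 and 4.2 on the PBS arrays and 6.28, 6.70 and 6.54 on the doxorubicin arrays (2.29 ± 0.24, adjusted p = 0.000141). Bik (-1.41 ± 0.18) and Bok (-1.58 ± 0.27, above background on 1 of 3 doxorubicin arrays), both pro-apoptotic, fell. Genes that sense and repair DNA damage moved both ways, at shares close to those of all genes: of 43 genes listed 38 were tested, 5 were higher and 7 lower, and the median change was -0.20. The BCL2 family had 9 higher and 2 lower for doxorubicin replicate 1 alone. Usp28, a deubiquitinase that binds 53BP1, fell, at 5.06, 5.16 and 5.47 on the PBS arrays and 3.29, 2.56 and 2.36 on the doxorubicin arrays (-2.49 ± 0.22, adjusted p = 7.47e-05), and Trp53bp1, which encodes 53BP1, fell by -1.58 ± 0.35. The mismatch repair gene Pms2 rose by 1.08 ± 0.14 and the histone variant H2afx by 1.69 ± 0.36. Of the 5 topoisomerase genes tested 0 were called in limma and 1, Top1, had an unadjusted p under 0.05, and Top2b was at 4.03, 4.23 and 4.04 on the PBS arrays and 4.39, 4.38 and 4.15 on the doxorubicin arrays (0.21 ± 0.19, adjusted p = 0.439). Top1 was at 0.36 ± 0.16 (adjusted p = 0.121), Top3a at 0.36 ± 0.17 (adjusted p = 0.147), Top1mt at 0.23 ± 0.16 (adjusted p = 0.295) and Top3b at 0.14 ± 0.10 (adjusted p = 0.329). The second probes of Top3a and Top3b gave 0.60 and 0.58. With the mean over the probes of a gene, 1 of the 5 topoisomerases was higher. In doxorubicin replicate 1 alone 7 DNA damage genes were higher and 19 lower, with a median of -0.50. With 1 array left out, the 5 higher of the DNA damage genes became 3 without PBS replicate 1 or doxorubicin replicate 2. The 7 lower of the DNA damage genes became 4 without PBS replicate 1 or 2 or 3 and 16 without doxorubicin replicate 3. Top1 alone of the topoisomerases was called without doxorubicin replicate 1 (0.53, adjusted p = 0.0138).

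The opposite moves of Hmox1 and Tfrc were not shared by iron genes as a group. Of 48 genes listed 44 were tested, 7 were higher and 7 lower, and the median change was 0.00, and both shares, 15.9%, were close to those of all genes. Alas1, which makes the first and rate-limiting step of heme synthesis, was at 7.85, 7.65 and 7.95 on the PBS arrays and 5.78, 5.82 and 5.45 on the doxorubicin arrays (-2.14 ± 0.15, adjusted p = 2.76e-05), with the groups far apart. Uros, a later enzyme of heme synthesis, fell by -0.85 ± 0.13, but its second probe gave 0.04. Hfe2, or hemojuvelin, fell by -1.10 ± 0.19. Slc40a1, the iron exporter ferroportin, was at 1.99, 1.83 and 1.99 on the PBS arrays and 2.37, 3.89 and 3.86 on the doxorubicin arrays (1.44 ± 0.34, adjusted p = 0.0106), with replicate 1 below the others, and was not called for replicate 1 alone. Fth1, the ferritin heavy chain that stores iron, was at 9.65, 9.62 and 9.76 on the PBS arrays and 10.02, 9.97 and 10.01 on the doxorubicin arrays (0.33 ± 0.09, adjusted p = 0.0236), a small but even rise, whose call was lost without PBS replicate 1 or 2 (adjusted p = 0.0691 and 0.0857). Translation of ferritin and stability of Tfrc mRNA are set by iron regulatory proteins, so mRNA levels alone do not give the protein of ferritin. On leaving out 1 array, the 7 higher of the iron genes became 3 without PBS replicate 1. With only doxorubicin replicate 1 10 iron genes were higher and 8 lower.

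Genes of the antioxidant response under NRF2 and of thiol redox rose in part. Of 49 genes listed 48 were tested, 18 were higher (37.5%, beside 13.6% of all genes) and 1 lower (2.08%, beside 14.3%). The median change was 0.32. Gclm, a subunit of the enzyme that starts glutathione synthesis, was at -0.66, -0.26 and -0.66 on the PBS arrays and 1.10, 1.36 and 1.55 on the doxorubicin arrays (1.86 ± 0.20, adjusted p = 0.000188). Txnrd1, thioredoxin reductase 1, was at 3.46, 3.50 and 3.64 on the PBS arrays and 5.60, 5.51 and 4.35 on the doxorubicin arrays (1.62 ± 0.27, adjusted p = 0.00173), with replicate 3 the lowest of the doxorubicin arrays. Glutathione synthetase Gss rose by 1.02 ± 0.16, the glutathione transferases Gsta3 by 2.06 ± 0.47 and Gstm1 by 0.90 ± 0.16, the NRF2 partners Mafg by 1.45 ± 0.26 and Mafk by 1.43 ± 0.34, and G6pdx, which supplies NADPH, by 1.06 ± 0.26. With all arrays the 1 member that fell was glutaredoxin, Glrx (-1.47 ± 0.31; not called for doxorubicin replicate 1 alone), and the canonical target Nqo1 was at 0.14 ± 0.15 (adjusted p = 0.504). The antioxidant response element core TGACNNNGC was found, on either strand, in the RefSeq promoters (GRCm38.p6) of 14 of 42 list members, or 33.3%, against 16.6% of all 10717 genes tested that have one. It was as common in the circadian clock list, at 6 of 17 promoters (35.3%). Its share was 17.3% among the genes higher and 17% among those lower. For the NRF2 list, the count of 18 higher became 10 without PBS replicate 1 or 3, 11 without PBS replicate 2 and 13 for doxorubicin replicate 1 alone (median 0.22 in the last), where 6 were lower. Fitted on the 6 wild-type arrays alone 6 were higher, on slide 1 alone 8, with the slide as a block 11, without a filter on dim probes 10 and 9 with a covariate for Y-linked transcripts.

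Of the 66 lists, that of interferon-stimulated genes had the most members higher. Type I interferon activates factors that bind the interferon-stimulated response element near many of its target genes. The promoters of the interferon-inducible GTPases, which attack vacuoles of intracellular microbes, hold such an element near the start. Its core, GAAA followed after 2 bases of any kind by GAAA again and searched on both strands, was in the RefSeq promoters of 9 of 9 of these GTPases that have one, in 14 of 37 interferon-stimulated genes (37.8%), and in 3.56% of all 10717 genes tested with a promoter. It was in 6.09% of the genes higher, 15.9% of those at least 4-fold higher and 2.5% of those lower. It was also in 3 of 18 promoters of potassium channel genes (16.7%), a list of which 15 members fell. For 7 genes that rose, bases -100 to -1 before the start are shown in GRCm38.p6, with the core, or its reverse complement, in capitals, so that its place can be compared between genes: Igtp chr11:58199456-58199555 (+), Irgm2 chr11:58214877-58214976 (+), Irgm1 chr11:48871421-48871520 (-), Tgtp2 chr11:49064213-49064312 (-), Gbp2 chr3:142620563-142620662 (+), Gbp3 chr3:142559944-142560043 (+) and Gbp7 chr3:142530236-142530335 (+). Gbp5 chr3:142496734-142496833 (+), which rose least of these genes, and Gbp1, listed as Gbp2b, chr3:142594647-142594746 (+), which was not above background on any of the 6 arrays, hold it farther out and are shown from -200 to -101.
Igtp: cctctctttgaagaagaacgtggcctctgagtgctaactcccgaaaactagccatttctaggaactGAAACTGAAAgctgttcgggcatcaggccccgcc
Irgm2: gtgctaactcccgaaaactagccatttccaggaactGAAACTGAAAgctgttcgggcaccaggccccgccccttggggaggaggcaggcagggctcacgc
Irgm1: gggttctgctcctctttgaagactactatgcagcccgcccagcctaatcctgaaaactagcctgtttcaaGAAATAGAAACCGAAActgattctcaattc
Tgtp2: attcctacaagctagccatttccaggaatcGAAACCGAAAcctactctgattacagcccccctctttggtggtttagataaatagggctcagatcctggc
Gbp2: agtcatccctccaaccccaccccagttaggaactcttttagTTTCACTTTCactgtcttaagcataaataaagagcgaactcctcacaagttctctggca
Gbp3: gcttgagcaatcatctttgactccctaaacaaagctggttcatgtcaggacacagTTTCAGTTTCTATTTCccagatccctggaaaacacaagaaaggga
Gbp7: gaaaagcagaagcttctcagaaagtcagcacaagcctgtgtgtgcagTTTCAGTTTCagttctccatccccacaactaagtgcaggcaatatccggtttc
Gbp5: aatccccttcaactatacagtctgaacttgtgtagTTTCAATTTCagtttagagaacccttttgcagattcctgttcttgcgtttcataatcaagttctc
Gbp1: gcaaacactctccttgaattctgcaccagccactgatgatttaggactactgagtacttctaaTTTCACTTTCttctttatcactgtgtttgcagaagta

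In these windows the core began at -34 in Igtp, -64 in Irgm2, -30 in Irgm1, -70 in Tgtp2, -59 in Gbp2, -45 in Gbp3 and -53 in Gbp7, against -165 in Gbp5 and -137 in Gbp1. Elsewhere in the interferon and class I lists it began at -213 in Cxcl10 (change 3.72) and -222 in Stat2 (1.63). It began at -4 in Erap1 (-0.19) and at 9, past the start, in Psme1 (-0.34). The place of the core was not tested against the change. The core of another element searched, the gamma-activated site (TTCNNNGAA), was in 5 of the same 9 GTPase promoters (55.6%). It was in 10 of 37 promoters of interferon-stimulated genes (27%) and in 8.42% of all 10717. The part of each type of interferon was not tested. A match of letters is a description of the sequence and not a site at which binding was measured. Of 19 genes listed 16 were tested, and the median change was 2.00. Higher were 14 (87.5%, beside 13.6% of all genes) and lower 0 (0 at an unadjusted p under 0.05). Igtp was at 2.89, 2.27 and 2.70 on the PBS arrays and 8.18, 7.33 and 3.42 on the doxorubicin arrays (3.69 ± 0.92, adjusted p = 0.0139). Irgm2 was at 1.97, 2.11 and 1.52 on the PBS arrays and 7.04, 6.27 and 2.38 on the doxorubicin arrays (3.36 ± 0.91, adjusted p = 0.0205). In both, replicates 1 and 2 were high and replicate 3 was just above PBS. Tgtp2 rose by 2.96 ± 0.68, Gbp2 by 2.74 ± 0.66, Gbp3 by 2.33 ± 0.53, Irgm1 by 2.29 ± 0.65 and Gbp7 by 2.23 ± 0.52, while Gbp10 rose by 1.13 ± 0.19 and Gbp5 by 0.57 ± 0.11, whose second probe gave 2.12. The call of Igtp was lost without doxorubicin replicate 2 (3.18, adjusted p = 0.052), and that of Irgm2 without PBS replicate 1 or 3 or doxorubicin replicate 1 or 2 (2.46 to 3.41, adjusted p = 0.0511 to 0.0721). The call of Irgm1 was lost without any 1 PBS array or doxorubicin replicate 2 (2.23 to 2.38, adjusted p = 0.0545 to 0.0696). For the GTPases, the count of 14 higher became 9 without doxorubicin replicate 2 and 14 for doxorubicin replicate 1 alone (median 2.98 in the last). Fitted on the 6 wild-type arrays alone 2 of the 16 were higher, and on slide 1 alone 8.

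Of 52 interferon-stimulated genes listed 47 were tested, 33 were higher (70.2%, beside 13.6% of all genes) and 1 lower (2.13%, beside 14.3%). The median change was 1.60. Ifit2, which blocks translation of foreign RNA, was at -2.11, -1.84 and -2.08 on the PBS arrays and 0.09, 0.96 and 1.34 on the doxorubicin arrays (2.81 ± 0.28, adjusted p = 0.000126). Oasl1, which restrains translation of Irf7, was at -1.66, -2.55 and -2.24 on the PBS arrays and 1.86, 1.19 and -0.07 on the doxorubicin arrays (3.14 ± 0.41, adjusted p = 0.000536). Irf7, the factor that amplifies interferon production, was at -2.07, -3.01 and -1.86 on the PBS arrays and 1.36, 1.46 and -0.16 on the doxorubicin arrays (3.20 ± 0.47, adjusted p = 0.00103). Replicate 3 was the lowest doxorubicin array for Oasl1 and Irf7 and the highest for Ifit2. The signalling factors Irf9 (1.73 ± 0.27) and Stat2 (1.63 ± 0.39) rose, as did the ubiquitin-like modifier Isg15 (2.14 ± 0.38), its protease Usp18 (2.69 ± 0.36), Ifit3 (3.11 ± 0.42), Ifit1 (3.40 ± 0.56, above background on 1 of 3 PBS arrays) and Oas2 (2.47 ± 0.36). Ifngr2, a subunit of the interferon gamma receptor, was the 1 member that fell (-0.87 ± 0.16). The median of the list was 1.70 on doxorubicin replicate 1, 1.91 on replicate 2 and 0.80 on replicate 3, and that of the GTPases 2.98, 2.26 and 0.74. For replicate 1 alone 35 members were higher. Family members such as the Gbp, Ifit, H2-Q and Serpina3 genes have near-identical copies, and probe specificity was not tested.

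Antigen presentation by MHC class I, which interferon also drives, rose with these genes. Of 30 genes listed 27 were tested, 16 were higher (59.3%, beside 13.6% of all genes) and 1 lower (3.7%, beside 14.3%). The median change was 1.08. Tap1, which pumps peptides into the endoplasmic reticulum, was at -2.91, -3.79 and -3.51 on the PBS arrays and 0.79, 1.0 and -0.36 on the doxorubicin arrays (3.88 ± 0.38, adjusted p = 0.000111, above background on 1 of 3 PBS arrays). B2m, the light chain of every class I molecule, was at 4.11, 3.35 and 3.94 on the PBS arrays and 5.25, 5.50 and 4.56 on the doxorubicin arrays (1.30 ± 0.27, adjusted p = 0.00594), and H2-K1, a heavy chain, was at 3.95, 3.12 and 3.63 on the PBS arrays and 4.69, 5.0 and 4.45 on the doxorubicin arrays (1.15 ± 0.23, adjusted p = 0.00479). The groups did not overlap for any of the 3 genes. The immunoproteasome subunit Psmb9 rose by 1.75 ± 0.41 and the class I transactivator Nlrc5 by 3.62 ± 0.75 (above background on 1 of 3 PBS arrays, second probe 0.93). Of the proteasome list 3 of 36 genes were higher (8.33%) and 2 lower (5.56%), with a median of 0.01. For doxorubicin replicate 1 alone 14 members of the class I list were higher, with a median of 0.99. When 1 array was left out, the 16 higher of the class I genes became 10 without PBS replicate 2.

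Among acute phase genes and chemokines, too, members rose. Of 33 genes listed 15 were tested, and the median change was 1.92. Higher were 9 (60%, beside 13.6% of all genes) and lower 0 (0 at an unadjusted p under 0.05). Saa1 was at -0.88, -0.95 and -0.50 on the PBS arrays and 0.86, 0.89 and 0.42 on the doxorubicin arrays (1.50 ± 0.16, adjusted p = 0.000188), and the serpin Serpina3n was at -3.02, -5.84 and -1.79 on the PBS arrays and 2.98, 1.53 and 1.81 on the doxorubicin arrays (5.66 ± 0.84, adjusted p = 0.00106, above background on 2 of 3 PBS arrays). Serpina3n was already variable among the PBS arrays, and all 3 doxorubicin arrays were above them. Complement factor Cfb was at least 5.28-fold and S100a8, a calcium-binding alarmin of neutrophils, at least 3.41-fold higher, and its partner S100a9 rose by 4.2 ± 0.73 (above background on 1 of 3 PBS arrays). Of 30 chemokine and receptor genes 17 were tested, 9 were higher (52.9%) and 2 lower (11.8%, beside 14.3% of all genes). The median change was 1.86. That median depends on dim probes: over the 7 genes above background on all 12 arrays 3 were higher and the median was -0.03, and with normexp background correction it was 0.68. For the acute phase genes these medians were 1.18, over 6 genes of which 3 were higher, and 0.97. Cxcl14 rose by 3.51 ± 0.33 (above background on 2 of 3 PBS arrays), Ccl6 by 2.63 ± 0.42, Ccl9 by 2.32 ± 0.32 and Ccl2, which draws monocytes, by 1.62 ± 0.37, while the scavenger receptor Cxcr7 fell by -1.25 ± 0.17. Il6ra apart, the IL6 family was mixed, with a median change of 0.14. Of 35 genes listed 29 were tested, 7 were higher (24.1%) and 4 lower (13.8%). The list median of the acute phase genes was 4.26 on doxorubicin replicate 1, 1.88 on replicate 2 and 1.70 on replicate 3, and 12 members were higher for replicate 1 alone, as were 9 chemokine genes, with 3 lower, and 14 genes of the IL6 family, with 6 lower. With 1 array left out, the 7 higher of the IL6 family became 3 without PBS replicate 2. Some neutrophil markers moved with these genes: Ly6g rose by 1.85 ± 0.29 beside S100a8 and S100a9, but Elane (-0.03 ± 0.20) and Csf3r (-0.02 ± 0.14) did not pass, and 10 of 15 markers, Mpo, Cxcr2 and Camp among them, were above background on no array. Their summed level, which Csf3r dominates, was 84.7 to 87.9 on the PBS and 69.8 to 106 on the doxorubicin arrays. Of the macrophage markers 2 of 17 were higher (11.8%) and 1 lower (5.88%), with sums of 92.4 to 103 and 68.2 to 99.3. Their part in the result was not tested.

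Targets of the glucocorticoid receptor, which adrenal corticosterone activates, rose in part. Of 29 genes listed 29 were tested, 12 were higher (41.4%, beside 13.6% of all genes) and 1 lower (3.45%, beside 14.3%). The median change was 0.66. Fkbp5, a chaperone of the receptor, was at 0.56, 1.14 and 2.00 on the PBS arrays and 4.47, 4.08 and 4.56 on the doxorubicin arrays (3.13 ± 0.44, adjusted p = 0.000764). Zbtb16, a zinc finger repressor, was at 2.09, 2.49 and 2.88 on the PBS arrays and 5.16, 5.45 and 5.23 on the doxorubicin arrays (2.80 ± 0.37, adjusted p = 0.000537). Map3k6, a stress-activated MAP kinase kinase kinase, was at -0.52, -0.10 and -0.07 on the PBS arrays and 3.29, 3.03 and 2.40 on the doxorubicin arrays (3.14 ± 0.35, adjusted p = 0.000238). These 3 genes were high on every doxorubicin array. The metallothioneins, which bind zinc and copper and also answer to metals, differed between probes: Mt1 rose by 1.24 ± 0.24 on its brightest probe, but its second probe gave 0.02. Mt2 rose by 2.44 ± 0.48. Other well-known targets did not pass, Tsc22d3 at 0.45 ± 0.23 (adjusted p = 0.169), Sgk1 at 1.02 ± 0.39 (adjusted p = 0.0758) and Klf9 at 0.49 ± 0.20 (adjusted p = 0.103). For this list, the count of 12 higher became 14 for doxorubicin replicate 1 alone (median 0.96 in the last).

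Clock genes, which keep a daily rhythm through the activators CLOCK and ARNTL and the repressors PER and CRY, changed mostly upward, with 2 PER and 1 CRY gene among those called. Of 24 genes listed 22 were tested, 9 were higher (40.9%, beside 13.6% of all genes) and 1 lower (4.55%, beside 14.3%). The median change was 0.26. Per1 was at 2.69, 2.38 and 3.05 on the PBS arrays and 4.34, 4.62 and 4.22 on the doxorubicin arrays (1.69 ± 0.34, adjusted p = 0.00493) and Cry2 at 3.01, 2.89 and 3.06 on the PBS arrays and 4.08, 4.42 and 4.29 on the doxorubicin arrays (1.27 ± 0.14, adjusted p = 0.000234). Per2 was at least 2.24-fold higher, and the output factor Tef (1.34 ± 0.17) and the repressor Bhlhe41 (1.86 ± 0.45) rose. Nr1d1, or REV-ERB alpha, fell, at 1.56, 1.02 and 1.20 on the PBS arrays and 0.17, -1.02 and 0.09 on the doxorubicin arrays (-1.51 ± 0.30, adjusted p = 0.00423). Arntl (-1.24 ± 0.52, adjusted p = 0.1), Dbp (0.24 ± 0.38, adjusted p = 0.677) and Cry1 (0.12 ± 0.38, adjusted p = 0.849) did not pass. The sources used here do not give the time of day at which mice of either group were injected and killed. In doxorubicin replicate 1 alone 10 clock genes were higher and 2 lower, with a median of 0.72.

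Growth genes rose in part. Of 20 genes of the Myc and Max network 16 were tested, with a median change of 0.73. Of these 8 were higher (50%, beside 13.6% of all genes) and 2 lower (12.5%, beside 14.3%). Myc was at -2.94, -1.41 and -2.88 on the PBS arrays and 1.34, -0.12 and -0.51 on the doxorubicin arrays (2.64 ± 0.55, adjusted p = 0.00591), with replicate 1 highest. Mxd4, an antagonist of Myc that competes for Max, was at 1.05, 1.15 and 1.09 on the PBS arrays and 3.92, 4.06 and 2.58 on the doxorubicin arrays (2.42 ± 0.34, adjusted p = 0.000772, second probe 0.97), and Mycn was at least 2.63-fold lower. Of 55 genes of RNA polymerase I and ribosome assembly 55 were tested, 22 were higher (40%) and 5 lower (9.09%). The median change was 0.36. The selectivity factor subunits Taf1c (1.25 ± 0.13) and Taf1d (1.88 ± 0.29), nucleolin Ncl (0.85 ± 0.15), nucleophosmin Npm1 (0.78 ± 0.15) and nucleostemin Gnl3 (1.03 ± 0.14) rose, whereas the initiation factor Rrn3, which links polymerase I to growth signals, was at 3.55, 3.59 and 3.69 on the PBS arrays and 2.80, 2.50 and 2.26 on the doxorubicin arrays and fell (-1.09 ± 0.13, adjusted p = 0.000363). Among immediate early genes, which serum and stress induce fast, 8 of 25 were higher (32%) and 0 lower (1 at an unadjusted p under 0.05). Klf6 rose by 1.78 ± 0.29 and Ctgf by 2.15 ± 0.42. Fos (0.73 ± 0.39, adjusted p = 0.197), Egr1 (0.38 ± 0.38, adjusted p = 0.492) and Atf3 (-0.60 ± 0.60, adjusted p = 0.493) did not pass. With only doxorubicin replicate 1 9 Myc network, 29 ribosome assembly and 12 immediate early genes were higher. On leaving out 1 array, the 5 lower of ribosome assembly became 3 without PBS replicate 2 or doxorubicin replicate 2. The 8 higher of the immediate early genes became 5 without PBS replicate 2 or 3.

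Of 74 cell cycle and kinetochore genes 51 were tested, with a median change of 0.14. Higher were 12 (23.5%, beside 13.6% of all genes) and lower 5 (9.8%, beside 14.3%). These were not the genes of 1 phase: Spc25 (4.11 ± 0.28), the replication helicase subunits Mcm7 (1.54 ± 0.13) and Mcm4 (1.17 ± 0.11), the replication clamp Pcna (0.90 ± 0.13) and the inhibitor Cdkn2b (2.52 ± 0.31, above background on 1 of 3 PBS arrays) rose. The mitotic kinesin Cenpe (-2.10 ± 0.28, above background on 2 of 3 PBS arrays and 0 of 3 doxorubicin arrays) fell. Ccna2 (-0.53 ± 0.23, above background on 2 of 3 PBS arrays and 1 of 3 doxorubicin arrays, adjusted p = 0.111) and Ccnb2 (-0.80 ± 0.31, above background on 2 of 3 doxorubicin arrays, adjusted p = 0.08), cyclins of dividing cells, did not pass. For doxorubicin replicate 1 alone 16 were higher and 10 lower. When 1 array was left out, the 5 lower of the cell cycle genes became 2 without PBS replicate 2 or 3 or doxorubicin replicate 2, 3 without PBS replicate 1 and 8 without doxorubicin replicate 3.

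Chaperone genes moved the other way. Of 35 heat shock protein and co-chaperone genes 34 were tested, 0 were higher (3 at an unadjusted p under 0.05) and 11 lower, and the median change was -0.30, against 14.3% lower among all genes. Hspa4 fell by -0.91 ± 0.12, Dnajb5 by -1.40 ± 0.19 (second probe -0.55), and the small heat shock proteins of muscle Hspb3 by -0.71 ± 0.10, Hspb7 by -1.04 ± 0.17 and Hspb2 by -0.56 ± 0.12. The classical inducible gene Hspa1a was at 0.96 ± 0.50 (adjusted p = 0.181) and Hsp90aa1 at 0.61 ± 0.23 (adjusted p = 0.0689). Of the unfolded protein response, 2 of 27 genes were higher (7.41%) and 5 lower (18.5%, beside 14.3% of all genes). Manf (-1.51 ± 0.25), a factor secreted under stress of the endoplasmic reticulum, fell. Of the integrated stress response and its amino acid genes, 5 of 43 were higher (11.6%, beside 13.6% of all genes) and 2 lower (4.65%). Its effector Ddit3 was at -0.66 ± 0.23 (adjusted p = 0.0579). For the heat shock list, the count of 11 lower became 6 without PBS replicate 3 or doxorubicin replicate 2 and 7 without PBS replicate 2. Its 0 higher became 4 without doxorubicin replicate 3. Its median was -0.40 for doxorubicin replicate 1 alone. With 1 array left out, the 5 lower of the unfolded protein response became 3 without PBS replicate 2 or 3 or doxorubicin replicate 1 or 2 and 11 without doxorubicin replicate 3. The 5 higher of the integrated stress response became 8 without doxorubicin replicate 1 or 3. Replicate 1 alone gave 1 higher and 8 lower in the unfolded protein response and 8 higher and 4 lower in the integrated stress response.

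**Figure D2:**
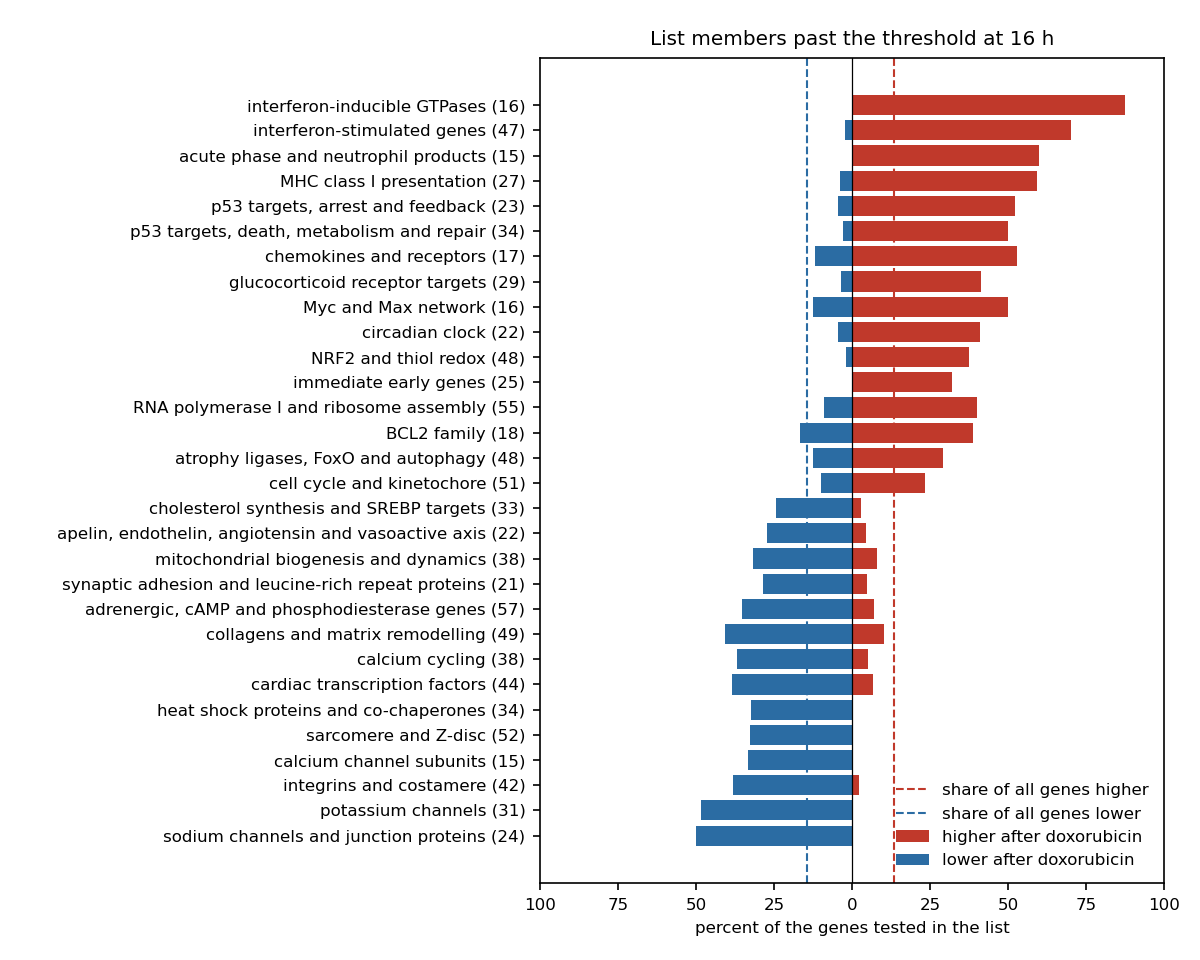
Percent of the genes tested in each list that were higher (bars to the right) or lower (bars to the left) after doxorubicin at 16 h, with the number tested in parentheses and the shares of all genes, 13.6% and 14.3%, as dashed lines. The 30 lists shown were picked for their balance of calls: the 16 that lean most to higher and the 14 that lean most to lower. They come from the lists, cell type markers apart, with at least 14 genes tested, and lists in between are left out. Interferon and p53 lists lie far to the right of the dashed line, and ion channel, junction and integrin lists to the left.

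Genes that carry the heartbeat were mostly lower where they changed. Of 53 potassium channel genes 31 were tested, and the median change was -0.71. Higher were 0 (0 at an unadjusted p under 0.05) and lower 15 (48.4%, beside 14.3% of all genes). Potassium currents end each action potential. Kcnk3, a background channel, was at 5.54, 5.61 and 5.78 on the PBS arrays and 2.93, 2.50 and 3.99 on the doxorubicin arrays (-2.50 ± 0.32, adjusted p = 0.000451). Kcnq1, whose channel carries the slow delayed rectifier current, was at 4.40, 4.09 and 4.51 on the PBS arrays and 2.71, 2.25 and 3.06 on the doxorubicin arrays (-1.66 ± 0.19, adjusted p = 0.000263). In both genes every doxorubicin array was below every PBS array. Kcnh2, of the rapid delayed rectifier, fell by -1.54 ± 0.23, Kcnd2, of the transient outward current, by -1.80 ± 0.24, and Kcnj11, the pore of the ATP-sensitive channel, by -1.90 ± 0.26. Kcnj2, of the inward rectifier, was at 0.42 ± 0.32 (adjusted p = 0.365). The list median was -1.38 on doxorubicin replicate 1, -0.53 on replicate 2 and -0.49 on replicate 3. For replicate 1 alone 17 genes were lower and 1 higher.

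Of 30 sodium channel and junction genes 24 were tested, and the median change was -0.45. Higher were 0 (0 at an unadjusted p under 0.05) and lower 12 (50%, beside 14.3% of all genes). Gja1, which encodes connexin 43, the main gap junction protein of the ventricle, was at 3.58, 3.28 and 3.25 on the PBS arrays and 0.62, 1.89 and 2.12 on the doxorubicin arrays (-1.83 ± 0.32, adjusted p = 0.00232). The desmosomal genes Pkp2 (-1.50 ± 0.19), Dsc2 (-1.26 ± 0.15), Dsp (-0.66 ± 0.12) and Dsg2 (-0.47 ± 0.11), which hold neighbouring myocytes together, fell as well, as did N-cadherin Cdh2 (-0.78 ± 0.11). The list medians on the 3 doxorubicin arrays were close, at -0.54, -0.56 and -0.56, and 10 were lower for replicate 1 alone. Of 40 calcium cycling genes 38 were tested, 2 were higher (5.26%, beside 13.6% of all genes) and 14 lower (36.8%). The median change was -0.35. Jph2, which ties the sarcoplasmic reticulum to the surface membrane, was at 3.08, 3.27 and 3.28 on the PBS arrays and 1.24, 0.88 and 1.84 on the doxorubicin arrays (-1.89 ± 0.21, adjusted p = 0.000207). Casq2, the calcium store protein, fell by -1.08 ± 0.14, phospholamban Pln by -1.06 ± 0.16, the sodium-calcium exchanger Slc8a1 by -1.08 ± 0.17 and the kinases Camk2d and Camk2g by -0.71 ± 0.10 and -1.08 ± 0.15, whereas the release channel Ryr2 (-0.37 ± 0.19, adjusted p = 0.184) and the pump Atp2a2 (-0.20 ± 0.11, adjusted p = 0.206) did not pass. Of 15 calcium channel subunits tested 5 were lower (33.3%) and 0 higher (1 at an unadjusted p under 0.05). Cacnb2 fell by -2.04 ± 0.14 and Cacna1g by -1.95 ± 0.36. For replicate 1 alone 14 calcium cycling genes and 3 channel subunits were lower. On leaving out 1 array, the 5 lower of the channel subunits became 2 without PBS replicate 2 and 3 without doxorubicin replicate 3.

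Of 52 sarcomere and Z-disc genes 52 were tested, and the median change was -0.29. Higher were 0 (0 at an unadjusted p under 0.05) and lower 17 (32.7%, beside 14.3% of all genes). Those named here belong to the Z-disc or bind to it. Fhl2 was at 9.69, 9.67 and 9.73 on the PBS arrays and 8.19, 7.79 and 8.36 on the doxorubicin arrays (-1.58 ± 0.15, adjusted p = 8.35e-05), and Csrp3, the muscle LIM protein, was at 8.44, 8.58 and 8.94 on the PBS arrays and 7.39, 7.06 and 6.98 on the doxorubicin arrays (-1.51 ± 0.15, adjusted p = 0.000125). Nebl (-0.96 ± 0.13), Flnc (-1.34 ± 0.23) and Ldb3 (-1.01 ± 0.18) fell, while the main contractile genes Myh6 (-0.07 ± 0.16, adjusted p = 0.78), Tnnt2 (-0.06 ± 0.12, adjusted p = 0.751) and Myl2 (-0.03 ± 0.16, adjusted p = 0.893) did not pass. All 16 cardiomyocyte markers were above background on all 6 arrays, 0 were higher (0 at an unadjusted p under 0.05) and 1, Pln, was lower. The sum of their linear levels was 14700 to 16100 on the PBS and 11600 to 14900 on the doxorubicin arrays. Of natriuretic peptide and fetal stress genes, Nppb fell as described, while Nppa was at -0.40 ± 0.38 (adjusted p = 0.456), Myh7 at 1.19 ± 0.72 (adjusted p = 0.248) and Gdf15 at 1.68 ± 1.23 (adjusted p = 0.339). For replicate 1 alone 15 sarcomere genes were lower and 2 higher.

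Transcription factors of the heart were mostly lower where they changed. Of 47 genes listed 44 were tested, 3 were higher (6.82%, beside 13.6% of all genes) and 17 lower (38.6%, beside 14.3%). The median change was -0.52. Gata4 was at 3.93, 4.07 and 3.88 on the PBS arrays and 2.90, 2.91 and 2.96 on the doxorubicin arrays (-1.04 ± 0.13, adjusted p = 0.000459), an even fall on all 3 arrays. Nkx2-5 was at 4.98, 4.98 and 5.03 on the PBS arrays and 3.63, 2.79 and 4.31 on the doxorubicin arrays (-1.42 ± 0.29, adjusted p = 0.00529). Srf, which drives contractile and cytoskeletal genes, fell by -1.59 ± 0.22 (second probe -0.58), Irx4, a ventricular factor, by -1.08 ± 0.15, the thyroid hormone receptor Thra by -1.96 ± 0.37, and the metabolic receptor Esrrg by -1.33 ± 0.24. Klf13 (1.35 ± 0.25) rose by its brightest probe, while another of its 3 probes gave -0.55, and Tbx18, a gene of the epicardium and sinus node, was at least 2.1-fold higher. In doxorubicin replicate 1 alone 22 were lower and 4 higher.

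Beside the rise of Pnmt, called adrenergic and cyclic AMP genes were mostly lower. Of 63 genes listed 57 were tested, 4 were higher (7.02%, beside 13.6% of all genes) and 20 lower (35.1%, beside 14.3%). The median change was -0.23. The beta-1 receptor Adrb1, through which adrenaline drives the heart, fell by -0.96 ± 0.24, the adenylyl cyclase Adcy5 by -0.91 ± 0.11 and dopamine beta-hydroxylase Dbh by -2.60 ± 0.58. The phosphodiesterases Pde4a, Pde7b (-2.39 ± 0.31, above background on 1 of 3 doxorubicin arrays), Pde3a (-1.39 ± 0.22) and Pde4d (-1.24 ± 0.26) fell too. Adra1a rose by 0.87 ± 0.16 while Adra1b (-1.30 ± 0.24) and Adra1d (-2.20 ± 0.42, above background on 1 of 3 doxorubicin arrays) fell. In the vasoactive axis, the apelin receptor Aplnr (-3.06 ± 0.53, above background on 1 of 3 doxorubicin arrays) and the muscarinic receptor Chrm2 (-1.81 ± 0.27) fell, and adrenomedullin Adm rose by 2.09 ± 0.36. Among growth factors Vegfa fell by -1.73 ± 0.17 and the neuregulin receptor Erbb4 by -1.63 ± 0.20, while Erbb2 rose by 0.68 ± 0.10 and the neurturin receptor Gfra2 by 3.1 ± 0.31. With only doxorubicin replicate 1 24 adrenergic and cyclic AMP genes were lower and 8 higher.

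Regulators of mitochondria were mostly lower where they changed. Of 38 genes of mitochondrial biogenesis and dynamics 38 were tested, with a median change of -0.25. Higher were 3 (7.89%, beside 13.6% of all genes) and lower 12 (31.6%, beside 14.3%). The fusion genes Mfn1 (-1.22 ± 0.11) and Mfn2 (-0.53 ± 0.11), the fission gene Dnm1l (-0.75 ± 0.13) and the factor Nrf1 (-1.01 ± 0.19) fell, and Ppargc1a was at -1.31 ± 0.46 (adjusted p = 0.0562). By contrast 3 of 37 complex I genes (8.11%) and 8 of 51 genes of complexes II to V (15.7%) were lower. In either list 0 were higher (0 at an unadjusted p under 0.05), with a median of -0.14 in both. Their medians differed between arrays: 0.03 on doxorubicin replicate 1, -0.21 on replicate 2 and -0.26 on replicate 3 for complex I. Of the fatty acid genes 3 of 41 were higher and 3 lower (7.32% each). Of the TCA cycle genes 1 of 23 was higher (4.35%) and 2 were lower (8.7%). In glucose and glycogen metabolism 5 of 44 were higher (11.4%) and 11 lower (25%). Pfkfb3, which makes an activator of glycolysis, was at -0.78, -1.59 and -1.61 on the PBS arrays and 2.74, 2.35 and -0.11 on the doxorubicin arrays (2.98 ± 0.66, adjusted p = 0.00787), while hexokinase 2 Hk2 (-0.98 ± 0.15), glycogen synthase Gys1 (-0.84 ± 0.13) and the glucose transporter Slc2a4 (-0.84 ± 0.18) fell. When 1 array was left out, the 12 lower of the biogenesis genes became 5 without PBS replicate 3 and 6 without PBS replicate 2 or doxorubicin replicate 2. The 3 lower of complex I became 12 without doxorubicin replicate 1. The 8 lower of complexes II to V became 4 without PBS replicate 2 or 3. The 2 lower of the TCA cycle became 10 without doxorubicin replicate 1. The 3 higher of the fatty acid genes became 5 without doxorubicin replicate 1. The 3 lower of the fatty acid genes became 6 without doxorubicin replicate 1. The 5 higher of glucose metabolism became 3 without PBS replicate 1 or 2. The 11 lower of glucose metabolism became 7 without PBS replicate 2. For doxorubicin replicate 1 alone 14 biogenesis genes, 0 complex I genes and 6 genes of complexes II to V were lower, and the fatty acid genes had 6 higher and 4 lower, the TCA cycle 1 and 1, and glucose metabolism 7 and 9.

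Matrix genes, several collagens among them, were mostly lower where they changed. Of 66 genes listed 49 were tested, 5 were higher (10.2%, beside 13.6% of all genes) and 20 lower (40.8%, beside 14.3%), and the median change was -0.62. Col3a1 was at 1.79, 1.34 and 0.82 on the PBS arrays and -1.57, -0.99 and -1.73 on the doxorubicin arrays (-2.75 ± 0.32, adjusted p = 0.000297), and Col1a1 was at 1.0, 0.44 and -0.24 on the PBS arrays and -1.48, -0.89 and -1.93 on the doxorubicin arrays (-1.84 ± 0.38, adjusted p = 0.00559). Col6a2 (-1.46 ± 0.28), Col4a5 (-1.47 ± 0.29) and Col8a1 (-2.37 ± 0.41, above background on 2 of 3 PBS arrays and 0 of 3 doxorubicin arrays) fell, and Col6a3 was at least 5.24-fold lower. The metalloproteinase inhibitors Timp3 (1.74 ± 0.19) and Timp4 (1.86 ± 0.31), Ctgf and the protease Adamts1 (2.02 ± 0.45) rose. Of 45 integrin and costamere genes 42 were tested, 1 was higher (2.38%) and 16 lower (38.1%), and the median change was -0.40. Itgb6 fell by -5.47 ± 0.43, above background on 3 PBS arrays and 1 doxorubicin array (second probe -3.97), and Lama2, Lims1 and Itga9 fell by -1.11 ± 0.16, -1.50 ± 0.23 and -1.93 ± 0.32. Some markers of fibroblasts and smooth muscle fell beside the collagens. Of 17 fibroblast markers tested 5 were lower and 0 higher (1 at an unadjusted p under 0.05), 3 of the 5 being collagens, with sums of 67.9 to 101 on the PBS and 62.2 to 116 on the doxorubicin arrays. The 5 became 2 without PBS replicate 1 and 3 without PBS replicate 2 or doxorubicin replicate 1 or 3. Of 14 smooth muscle and pericyte markers tested 6 were lower and 0 higher (0 at an unadjusted p under 0.05), Acta2 at 5.97, 5.88 and 6.31 on the PBS arrays and 3.90, 3.1 and 4.24 on the doxorubicin arrays (-2.30 ± 0.30) among them, and their sums, 223 to 245 against 143 to 151, did not overlap. Their part in the result was not tested. Of 20 endothelial markers 1 was higher and 2 were lower, with sums of 81.3 to 123 and 85.1 to 133. In doxorubicin replicate 1 alone 15 matrix genes were lower and 13 higher, and 16 integrin genes lower and 7 higher. With 1 array left out, the 20 lower of the matrix genes became 12 without PBS replicate 2. The 16 lower of the integrin genes became 8 without PBS replicate 2 and 10 without PBS replicate 3.

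Some genes better known from neurons fell. Of 48 genes of synaptic adhesion and leucine-rich repeat proteins 21 were tested, 1 was higher and 6 lower (28.6%, beside 14.3% of all genes), and the median change was -0.74. Over the 14 genes above background on all 12 arrays 3 were lower and the median was -0.54. With normexp background correction 5 were lower and the median was -0.36. Lrrc4b was at 5.04, 4.51 and 4.25 on the PBS arrays and 0.47, 1.19 and 2.01 on the doxorubicin arrays (-3.38 ± 0.34, adjusted p = 0.000127), and Lingo3 was at 2.63, 2.00 and 2.06 on the PBS arrays and -2.38, -1.97 and -0.62 on the doxorubicin arrays (-3.89 ± 0.46, adjusted p = 0.000319). Rtn4r, the Nogo receptor, fell by -3.79 ± 0.61 (above background on 1 of 3 doxorubicin arrays), whereas Lrrc4 rose (2.82 ± 0.52, above background on 1 of 3 PBS arrays). Of 64 axon guidance genes 52 were tested, 2 were higher (3.85%, beside 13.6% of all genes) and 13 lower (25%). The median change was -0.24. The semaphorin receptors Nrp1, at 1.31, 1.35 and 1.45 on the PBS arrays and -1.26, -1.15 and -1.03 on the doxorubicin arrays (-2.52 ± 0.21, adjusted p = 5.8e-05), and Plxnd1 (-2.21 ± 0.20), both also of blood vessels, fell, as did Sema3b (-1.30 ± 0.11) and Ephb1. The list chosen for neural-type genes was drawn up with falls of Lingo3 and Lrrc4b already known, so its count is a description. Of 68 chromatin and corepressor genes 67 were tested, 9 were higher (13.4%) and 16 lower (23.9%), and the median change was -0.07. Beside Rcor2 and Dnmt3a, Dot1l fell by -1.12 ± 0.21 and Chd4 by -0.63 ± 0.10, while Sirt1 (0.97 ± 0.15) and Eed (1.01 ± 0.15) rose. In Wnt signalling 5 of 42 were higher (11.9%) and 9 lower (21.4%). Wnt5a (-2.38 ± 0.40) fell beside Wnt5b, and Fzd9 (2.10 ± 0.19) rose. In TGF-beta, activin and BMP signalling 10 of 47 were higher (21.3%) and 5 lower (10.6%). Tgfb1 (-1.49 ± 0.17) fell and Id1 (1.17 ± 0.27), a target of BMP, rose. On doxorubicin replicate 1 the medians were -0.40 for the synaptic, -0.28 for the guidance and -0.19 for the chromatin list. Without doxorubicin replicate 3, 4 guidance and 11 chromatin genes were higher. On leaving out 1 array, the 5 higher of Wnt signalling became 2 without PBS replicate 3 and 3 without PBS replicate 2 or doxorubicin replicate 2. The 9 lower of Wnt signalling became 5 without PBS replicate 3. The 10 higher of TGF-beta signalling became 5 without PBS replicate 2 and 6 without PBS replicate 1. The 5 lower of TGF-beta signalling became 3 without PBS replicate 2. Replicate 1 alone gave 5 higher and 9 lower in Wnt signalling and 18 higher and 5 lower in TGF-beta signalling.

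Several of these counts were much smaller in the fit on the 6 wild-type arrays alone, while the changes themselves stay the same by construction. Counts of higher members fell there from 33 to 21 for interferon-stimulated genes, from 16 to 7 for class I genes, from 7 to 2 for the IL6 family, from 22 to 11 for ribosome assembly, from 8 to 4 for immediate early genes, from 7 to 1 for iron genes and from 10 to 4 for TGF-beta signalling. Counts of lower members fell from 15 to 9 for potassium channels, from 12 to 6 for junction genes, from 14 to 9 for calcium cycling, from 17 to 9 for the sarcomere and from 17 to 5 for cardiac transcription factors. They fell from 20 to 12 for matrix, from 16 to 7 for integrins, from 20 to 10 for adrenergic genes, from 12 to 3 for mitochondrial biogenesis, from 11 to 4 for heat shock proteins, from 13 to 8 for axon guidance and from 16 to 4 for chromatin genes. The p53 lists had 8 and 13 higher (12 and 17 with all arrays), the glucocorticoid list 8 (12), the acute phase list 7 (9) and the chemokines 7 (9).

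Probes for intergenic noncoding intervals were also measured. Of 2122 tested 125 were higher (5.89%) and 163 lower (7.68%), against 13.6% and 14.3% of all genes. The difference in shares was not tested.

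**Figure D3:**
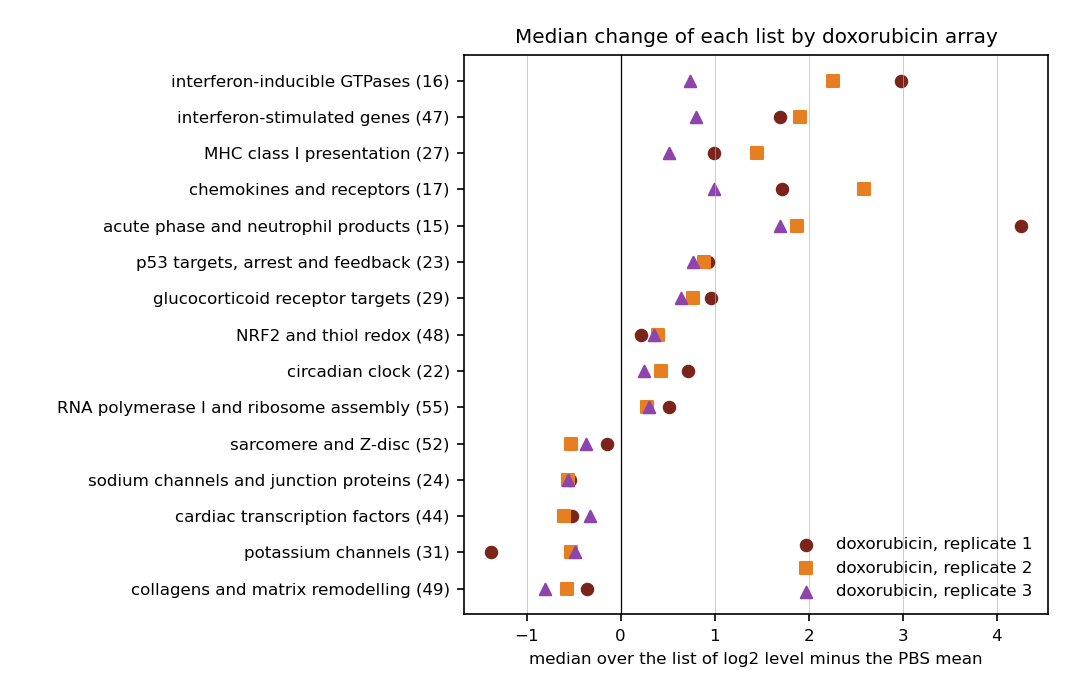
Median over the tested genes of a list (number in parentheses) of the log2 level minus the PBS mean, on each of the 3 doxorubicin arrays. Replicate 3 (triangles) is lowest in the interferon, class I and chemokine lists, at 0.74 to 0.99 for GTPases, interferon-stimulated genes and chemokines against 1.70 to 2.98 on the other 2 arrays, whereas the junction list is nearly the same on all 3.

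At 72 h the wild-type response was smaller in number of genes. There 499 of 19669 genes tested were called (2.54%), 183 higher (0.93%) and 316 lower (1.61%), in samples with their own PBS arrays and on other slides, so time cannot be told apart from slide, and the times were not tested against each other. The 72 h arrays differed in the other markers too: Ddx3y was above background on 1 of 3 PBS and 0 of 3 doxorubicin arrays, and Esr1 on 2 of 3 of each, at 8.41 and 8.58 after PBS. The part of this in the 72 h values was not tested. Of genes tested at both times, 93 were higher at both, 3.81% of the 2442 higher at 16 h and 55.7% of the 167 higher at 72 h. A further 206 were lower at both, 7.83% of the 2631 lower at 16 h and 66% of the 312 lower at 72 h. In opposite directions, 4 genes were higher at 16 h and lower at 72 h, and 2 the reverse. Among the 20 largest rises 19 had the same sign at 72 h and 8 were called, Apod at 3.87 ± 0.50 (adjusted p = 0.0156), while Spc25 was at -0.11 ± 0.32 (adjusted p = 0.869). Among the 20 largest falls 17 had the same sign and 4 were called, Tfrc at -3.34 ± 0.55 (adjusted p = 0.0268). Gadd45a, a p53 target of growth arrest, was one that turned, at 1.50 ± 0.50 at 16 h and -0.99 ± 0.19 at 72 h, though its 16 h call was lost without any 1 PBS array or doxorubicin replicate 1. The list medians at 72 h were 0.24 for p53 arrest genes (0.86 at 16 h), 0.79 for interferon-stimulated genes (1.60), 1.71 for class I genes (1.08), 2.90 for acute phase genes (1.92) and -0.32 for potassium channels (-0.71). Fewer members were called there. Higher were 3 of 21 p53 arrest, 3 of 43 interferon-stimulated, 2 of 27 class I and 6 of 13 acute phase genes. Of potassium channels 2 of 31 were lower. Marker medians at 72 h ranged from -2 for erythroid to 2.33 for neutrophil markers, with 1.43 for endothelial and 0.94 for macrophage markers. Their part in the list medians was not tested.

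The same drug and time in Top2b-deleted cardiomyocytes gave 0 calls in limma and 797 genes at an unadjusted p under 0.05, against 7520 in wild type, and the difference between the genotypes' responses, tested as an interaction, passed for 2159 genes (11.5%). Of the 5224 genes called in wild type it passed for 2114. In 967 of these the wild-type rise was larger than the Top2b-deleted change, and in 1147 the wild-type fall was, with 0 the other way. The wild-type arrays are shared between this test and the calls, so choosing genes called in wild type favours this direction. Of the Top2b-deleted arrays 2 of 3 after PBS were on the slide of the 6 wild-type arrays and the other PBS array and all 3 after doxorubicin on a second slide, and the part of the slide in this difference was not tested. Ddx3y was above background on 3 of 3 PBS and 1 of 3 doxorubicin arrays of wild type, against 0 of 3 and 1 of 3 of the Top2b-deleted, and Esr1 was at 5.04 to 6.45 on all 6 Top2b-deleted arrays. The difference between the responses overlaps in part with this division of the arrays, whose part in it was not tested. Among the 20 largest rises the Top2b-deleted change was between -0.36 and 1.42, the highest being Igtp, and the difference passed for 12. Among the 20 largest falls it was between -1.18, in Nppb, and 0.46, and the difference passed for 16. In the GTPases the difference passed for 0 of 16 (5 at an unadjusted p under 0.05), with a Top2b-deleted median of 0.54, and in interferon-stimulated genes for 14 of 47, with a median of 0.15. In the p53 lists it passed for 8 of 23 and 15 of 34, with medians of 0.09 and 0.06.

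**Figure D4:**
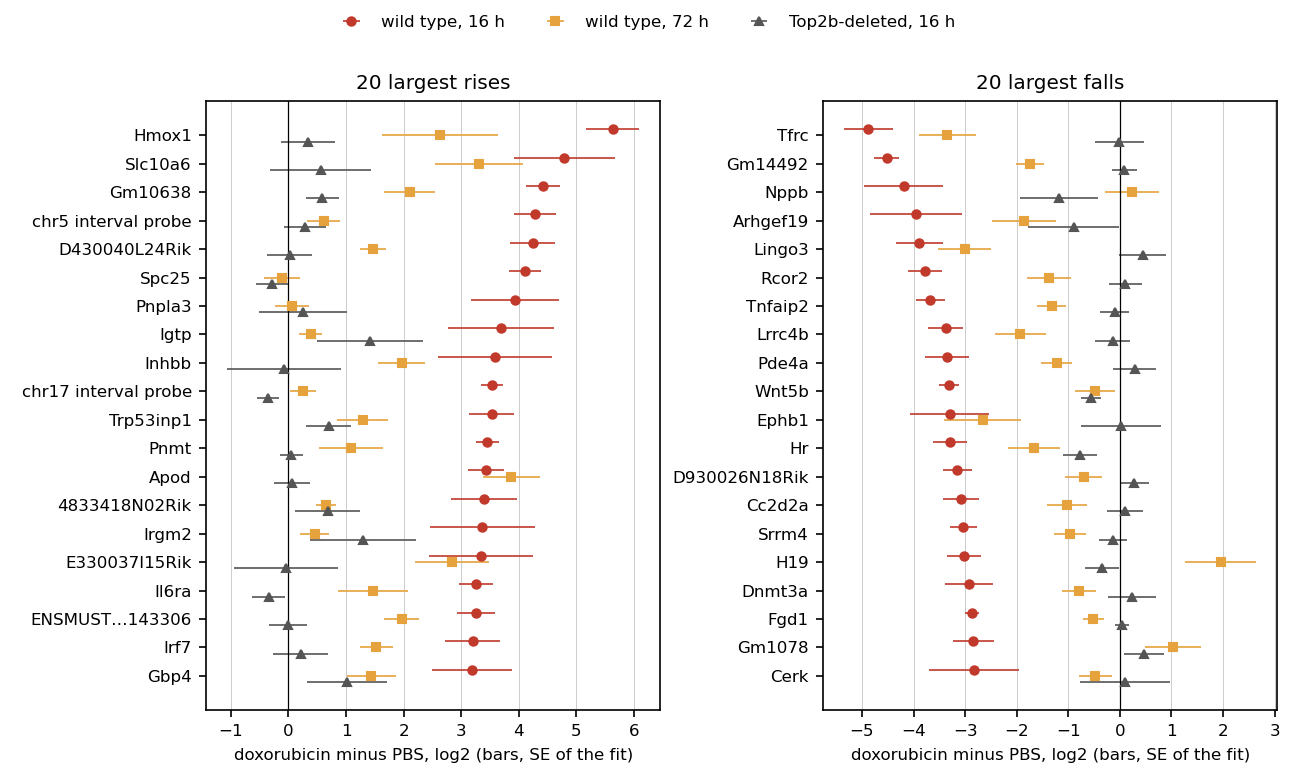
Doxorubicin minus PBS (log2, horizontal axis; bars are the SE of the limma fit, 3 arrays per group) for the 20 largest rises and 20 largest falls of wild type at 16 h, beside the change in wild type at 72 h and in Top2b-deleted cells at 16 h. The genes were chosen for their 16 h change in wild type. At 72 h 19 of the rises and 17 of the falls keep their sign, and the Top2b-deleted values lie between -1.18 and 1.42.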

How the data were processed

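Total RNA of cardiomyocytes was measured on 1-colour Agilent arrays read with Feature Extraction 10.7.3.1 of Agilent, as recorded per the file headers. The intensity used is the processed signal deposited by the authors, already background-subtracted and detrended within the array. The authors' deposited value table holds the same signals as a ratio to each array's median (every column median is 1) and was used as a check. Probe coordinates are those of mm9. Outlier spots were left out, and log2 intensity was taken minus each array's 75th percentile. Kept were probes well above background on each of the 3 arrays of any of the 4 groups of 16 h, the brightest kept probe stood for a gene, and the 12 arrays of 16 h were fitted with limma 3.58.1 (R 4.3.3; 8 residual degrees of freedom), with Benjamini-Hochberg adjustment over 18750 genes. A lower bound on the fold was set at the lowest detectable signal. On simulated data with 200 changed genes of 18750, 49% were recovered at a log2 size of 1 and 86% at 2, with 6 false calls. The simulation gave a gene the same spread in every group, whereas here the median SD was 0.154 after PBS and 0.335 after doxorubicin. Here 27.9% of genes were called, far more than were changed in the simulation, so its shares may not hold for this comparison.

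Named were the 20 largest rises and falls above background on all 6 arrays, in each direction up to 8 genes with a bound, the topoisomerases, the 6 members of each of 66 lists with the smallest adjusted p, and further members. The members and lists were chosen with earlier results of these data known. Alternatives covered scaling, background correction, filters, probes, slides, replicate block, Y-linked transcripts and arrays left out. Promoters are from RefSeq (GRCm38.p6). A few members of the lists are counted but not reported here by name.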

Additional observations from a re-analysis of the deposited data

Results flagged for a closer look

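The response to doxorubicin differed between the wild-type and the Top2b-deleted arrays of 16 h, by the interaction term of the limma fit, for 2114 of the genes called in wild type. For the leading genes the difference is given as the Top2b-deleted response minus the wild-type response on the log2 scale. Among the rises it was -5.29 for Hmox1, -4.40 for Spc25, -4.22 for D430040L24Rik and -3.99 for the chromosome 5 interval that shares its site. It was -3.89 for the chromosome 17 interval at Kifc1, -3.83 for Gm10638, -3.60 for Il6ra, -3.40 for Pnmt, -3.37 for Apod, -3.27 for ENSMUST00000143306, -2.99 for Irf7 and -2.83 for Trp53inp1. Among the falls it was 4.87 for Tfrc, 4.61 for Gm14492, 4.33 for Lingo3, 3.89 for Rcor2, 3.64 for Pde4a, 3.57 for Tnfaip2, 3.43 for D930026N18Rik and 3.30 for Gm1078. It was 3.24 for Lrrc4b, 3.18 for Cc2d2a, 3.17 for Dnmt3a, 2.91 for Fgd1, 2.90 for Srrm4, 2.75 for Wnt5b, 2.68 for H19 and 2.52 for Hr. In each of these genes the Top2b-deleted change was nearer to 0 than the wild-type change. They were picked for large wild-type changes whose difference passed, so this direction follows largely from the choice. The difference also overlaps in part with the slide and with the division of the arrays by Ddx3y and Esr1, whose part was not tested.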

How the results depend on the processing

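Against 5224 genes past the threshold, the fit on the 6 wild-type arrays alone called 2027 (1013 higher, 1014 lower). The fit on slide 1 alone called 3280 (1630 higher, 1650 lower), and both had fewer samples to estimate the spread. The main fit shares 1 estimate of the spread over 4 groups, while the median SD in wild type was 0.335 after doxorubicin and 0.154 after PBS. Its SE may therefore be too small for the doxorubicin arrays, which was not tested. Grouping by the genotype characteristic instead of the title called 0 genes in limma (0 higher, 0 lower; 2245 at an unadjusted p under 0.05), with the cause not tested. Leaving out 1 array gave 3641 to 6650 calls, 1837 to 3129 higher and 1804 to 3521 lower. The replicate numbers do not pair the arrays: deviations of same-numbered PBS and doxorubicin arrays correlated at -0.05, -0.12 and 0.09 over genes, and the replicate block gave 4941 calls (2428 higher, 2513 lower). Other settings gave 3840 (no filter, of 34844 genes) to 7520 calls (doxorubicin replicate 1 alone), each within 1.5 times, and the share of calls that were higher stayed between 46.1% and 53.6%. Of 489 genes followed, Cidea alone turned its sign with a call, from -0.04, not called, to 0.76 (adjusted p = 0.00932) for replicate 1 alone. With the 6 arrays alone 121 of the 489 lost their call, and 36 with a covariate for Y-linked transcripts. The cause was not tested. Dim probes limit the bounds, and 3 arrays per group limit the precision.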

Other observations

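Some genes of protein breakdown and of hormone and lipid signalling were called too, beside 27.9% of all genes (13.6% higher, 14.3% lower). Of 48 genes of muscle atrophy, FoxO and autophagy tested 14 were higher and 6 lower. Foxo1, a factor that drives atrophy ligases, rose (1.10 ± 0.16), as did the autophagosome gene Gabarapl1 (1.63 ± 0.21) and the ubiquitin ligase Fbxo30 (0.90 ± 0.16), while the muscle ligase Trim55 fell (-1.12 ± 0.16). Of 42 insulin and IGF signalling genes tested 4 were higher and 7 lower, with the PI3-kinase subunit Pik3r1 rising (1.55 ± 0.14) and Akt1 (-0.80 ± 0.14) and the receptor inhibitor Grb14 (-1.64 ± 0.30) falling. Of 35 nuclear receptor genes tested 4 were higher and 11 lower, the latter including the mineralocorticoid receptor Nr3c2 (-1.67 ± 0.29, above background on 1 of 3 doxorubicin arrays). One of those higher, Esr1, was above background on 0 of 3 PBS arrays and, of the doxorubicin arrays, on replicates 2 and 3, which had no Ddx3y or Uty above background. Of 33 cholesterol synthesis and SREBP target genes tested 1 was higher and 8 lower, Hmgcs1 (-0.76 ± 0.12) and Cyp51 (-0.89 ± 0.18) among those that fell. Of 25 genes of anthracycline efflux and reduction tested 3 were higher and 3 lower. Xdh, whose product xanthine oxidoreductase can reduce quinones, was at -0.88, -0.46 and -0.78 on the PBS arrays and 1.53, 3.40 and 1.52 on the doxorubicin arrays (2.85 ± 0.41, adjusted p = 0.000893), with every doxorubicin array above every PBS array. With 1 array left out, the 14 higher of the atrophy list became 8 without PBS replicate 1. The 7 lower of insulin signalling became 4 without PBS replicate 1 or 2 or 3 and 14 without doxorubicin replicate 3. The 11 lower of the nuclear receptors became 6 without PBS replicate 3 and 7 without PBS replicate 2. The 8 lower of cholesterol synthesis became 3 without PBS replicate 3, 4 without PBS replicate 2 and 5 without PBS replicate 1 or doxorubicin replicate 2. The 3 higher of efflux and reduction became 5 without doxorubicin replicate 1. Replicate 1 alone gave 18 higher and 9 lower in the atrophy list, 5 and 14 in insulin signalling, 5 and 17 among nuclear receptors, 1 and 11 in cholesterol synthesis and 4 and 4 in efflux and reduction. The fit on the 6 wild-type arrays gave 4 and 3, 3 and 2, 1 and 5, and 2 and 1 in the atrophy, insulin, nuclear receptor and efflux lists, and 1 lower in cholesterol synthesis.

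Signalling lists of inflammation and growth had members called both ways, beside 13.6% of all genes higher and 14.3% lower. The shares higher and lower were 19.2% and 19.2% for TNF and NF-kB feedback and 15% and 10% for MAPK feedback. They were 8.7% and 17.4% for Notch and 13.3% and 6.67% for complement, so most were close to those of all genes. Of 26 genes of TNF and NF-kB feedback tested 5 were higher and 5 lower: Rela rose (0.76 ± 0.11) and its relative Relb fell on its brightest probe (-1.44 ± 0.12), while its 3 probes ranged from -1.44 to -0.11. With 1 array left out, the 5 higher of the TNF list became 3 without PBS replicate 2 or 3 and 9 without doxorubicin replicate 3. The 5 lower of the TNF list became 2 without PBS replicate 3 and 3 without PBS replicate 1 or 2. Replicate 1 alone gave 12 higher and 6 lower in the TNF list. The 3 higher of MAPK feedback became 5 without doxorubicin replicate 3. Of 20 MAPK feedback genes tested 3 were higher and 2 lower, the phosphatase Dusp2 rising by 2.19 ± 0.19, and both lower calls were lost without any 1 of the 3 PBS arrays or doxorubicin replicate 1. Of 23 Notch genes tested 2 were higher and 4 lower, the protease Adam17 falling (-1.18 ± 0.18). Of 15 complement genes tested 2 were higher and 1 lower, with Cfd, or adipsin, falling (-1.54 ± 0.32, above background on 2 of 3 doxorubicin arrays). Of 5 lymphocyte markers tested 1 was higher and 0 lower (0 at an unadjusted p under 0.05). Of 4 adipocyte markers tested 1 was higher and 1 lower. Of 5 erythroid markers tested 0 were higher (0 at an unadjusted p under 0.05) and 0 lower (0 at an unadjusted p under 0.05), and of 7 Schwann and mesothelial markers tested 0 were higher (0 at an unadjusted p under 0.05) and 0 lower (0 at an unadjusted p under 0.05). Of 8 atrial and conduction markers tested 0 were higher (0 at an unadjusted p under 0.05) and 1 lower, and the sum of their linear levels, in multiples of each array's 75th percentile, ranged from 246 to 739 over the 3 PBS arrays and from 259 to 469 over the 3 doxorubicin arrays.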
